A study of Mus musculus with 16 samples.

Results

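The genes that surround mouse Apoe were examined in *APOE3* and *APOE4* brain endothelial cells. Every gene of the count table whose start lies on chromosome 7 between 14696109 and 24696109 (GENCODE vM21, GRCm38), that is within 5 Mb of the start of Apoe at 19696109, was taken, and Apoe itself was left out. This gave 447 of the 39057 genes of the table, and 83 of them were expressed highly enough to be tested. Membership follows from position alone.

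When a gene is replaced by homologous recombination in embryonic stem cells, the DNA on both sides of the target is inherited with it. Backcrossing removes that flanking DNA only where a crossover happens to fall, so 2 targeted lines can differ at genes beside the targeted locus as well as at the locus itself, and such differences are called passenger differences. In the mouse the region directly around Apoe holds the apolipoprotein C genes, Tomm40 (the channel of the mitochondrial outer membrane import machinery), the adhesion molecules Nectin2 and Bcam, and the nuclear factor kappa B family members Relb and Bcl3. Farther out lie families that arose by tandem duplication, among them the vomeronasal receptors, the pregnancy-specific glycoproteins and a cluster of zinc finger genes.

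RNA was sequenced from primary cultures of endothelial cells of the cerebral cortex. The 2 genotypes, *APOE3* and *APOE4*, are lines of targeted replacement mice, and each is represented by 8 cultures, 4 of males and 4 of females. In both lines human *APOE* is expressed from the promoter of the mouse gene in every cell type that uses it, so neither genotype is specific to endothelial cells and no library carries an unmodified Apoe locus. The mice were 21 to 28 days old, each culture came from 1 brain, and all cultures were selected with puromycin, grown to confluence and left untreated. Total counts per library were 12717847 to 18624417, with no difference detected between genotypes (log2 total count, two-sided exact permutation test, p = 0.758, 0.853 adjusted over 9 single values). The genetic background of the 2 lines and the extent of their flanking DNA are not given in the sources used here, and no sequence variants were analysed here.

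Human *APOE*, which both lines carry, was present in every library, so its presence fits the labelled lines but does not tell the genotypes apart. It was at 1003 CPM (counts scaled to library size) in the lowest, 1098 in the median and 1425 in the highest *APOE3* library, and at 609, 818 and 1013 CPM in *APOE4* libraries. The 2 genotypes thus overlapped only at the edge, and the log2 fold change of *APOE4* against *APOE3* was -0.56 (SE 0.0986, edgeR quasi-likelihood test, Benjamini-Hochberg adjusted p = 0.00542). With the cell cycle score described below as a covariate, it was -0.23 (adjusted p = 0.608). The row for mouse Apoe held 128 to 290 counts per library, which was 1.03 to 1.8% of the reads of both rows, with a log2 fold change of -0.30 (SE 0.0865, edgeR adjusted p = 0.0297). Whether those reads come from mouse sequence or from human transcripts assigned to the mouse row was not tested. All 11 endothelial markers passed the filter and summed to 12457 to 13496 CPM in *APOE3* and 12541 to 13520 CPM in *APOE4* libraries, while 6 microglia and macrophage markers summed to 0.0704 to 0.749 and 0.0794 to 0.792 CPM, with P2ry12 at 0. Smooth muscle markers summed to 181 to 335 and 214 to 323 CPM, and the pericyte, fibroblast, astrocyte, oligodendrocyte and neuron lists each stayed at or below 31.2 CPM. A cell cycle score was formed for each library as the mean log2 CPM over 31 genes of DNA replication and mitosis. It was 5.71 ± 0.352 (SD, n = 8) with *APOE3* and 6.31 ± 0.275 (SD, n = 8) with *APOE4*. Libraries ran from 5.22 to 6.27 and from 5.99 to 6.78, so the genotypes overlapped. Their means differed by a two-sided exact permutation test (p = 0.00155, 0.0139 adjusted over 9 single values).

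Most genes of the region had no reads in these cells. Of the 447 genes, 251 were protein-coding, 179 were pseudogenes, 16 were long intergenic noncoding RNAs and 1 was a processed transcript, and 297 had no read in any library. A test required enough counts (0.647 CPM or more in at least 8 libraries), which 78 of the protein-coding genes, 3 of the pseudogenes and 2 of the noncoding RNAs met. Of the 67 genes that had reads but were not tested, 21 held 1 to 3 counts over all 16 libraries, 40 held 4 to 99 and 6 held 100 or more. The 5 largest of these were C5ar2 with 162 counts, Kcnn4 with 142, Zfp296 with 122, Psg16 with 118 and Dact3 with 101, and the highest count of any untested gene in a library was 21. All reads on the 447 genes together made up 0.716 to 0.749% of the counts of an *APOE3* library and 0.693 to 0.727% of an *APOE4* library.

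The genes were unevenly spread, and 3 stretches held no tested gene. Between 0.241 and 4.251 Mb on the telomere side lay 172 genes, of which 167 were at 0 in every library, and 74 of them carried names of vomeronasal receptor genes or their pseudogenes. Between 2.665 and 0.856 Mb on the centromere side lay 54 genes, 39 of them at 0, with 14 pregnancy-specific glycoprotein names, the pseudogene Psg-ps1 included, and 6 Ceacam names. The stretch from 4.408 to 3.779 Mb on the centromere side held 31 genes, 30 of them at 0, and 19 carried names of the oocyte-specific Obox homeobox family. As a consequence no gene between 1 and 2.5 Mb from Apoe could be tested on either side, and the tested genes formed 3 blocks, of 25 genes on the centromere side (the pseudogene Mrip-ps, alone beyond the outermost empty stretch, is counted with them), 42 around Apoe and 16 on the telomere side. The block edges were read off after the values were seen.

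Across the 83 tested genes, 13 (15.7%) differed between genotypes at an adjusted p under 0.05 (edgeR quasi-likelihood test, adjusted over all 12481 genes tested), and the share over all genes tested was 12.8%. Of the 13, 11 were lower and 2 were higher in *APOE4* brain endothelial cells. The lower genes made up 13.3% of the tested genes of the region against 6.09% of all genes tested, and the higher genes 2.41% against 6.71%. Without a threshold, 56 of the 83 genes (67.5%) had a log2 fold change below 0, against 50.1% of all genes tested. The median log2 fold change was -0.06 in the region and -0.00022 over all genes tested, while the median size of a change was 0.09 on the log2 scale in both. In bulk cultures, fewer cells that express a gene and less RNA per cell cannot be told apart. Genes of a region are not independent of each other, and no test was made of whether the region differed from other regions of the genome.

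**Figure D1:**
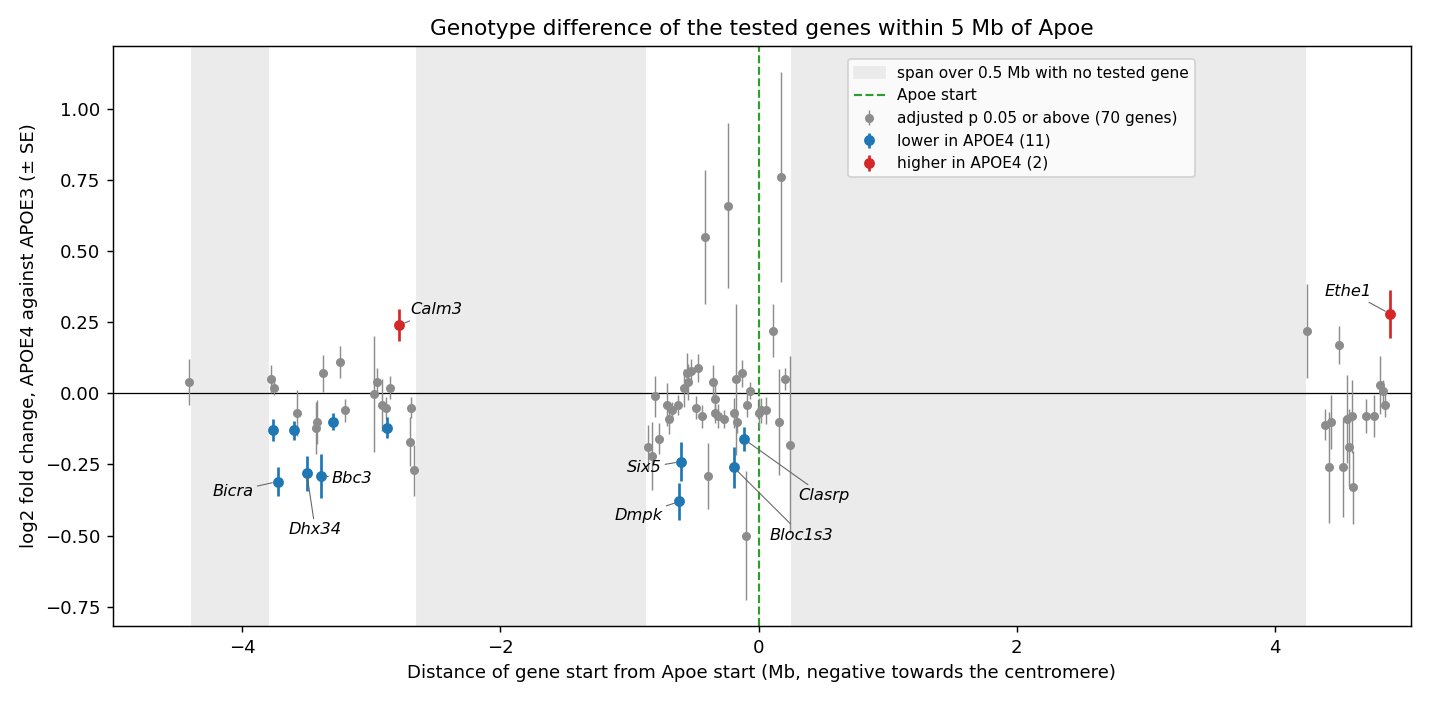
Each point is 1 of the 83 tested genes, placed by the distance of its start from the start of Apoe (Mb, negative towards the centromere) and by its log2 fold change of APOE4 against APOE3, with bars of ± SE from edgeR. Blue marks the 11 lower and red the 2 higher genes, and grey areas are the 3 stretches without a tested gene. The 42 points of the block around Apoe run from -0.5 to 0.76 with a median of -0.06.

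With both sides pooled, the share called was lowest next to the targeted locus and highest far from it. Within 0.5 Mb of Apoe 2 of 28 tested genes (7.14%) were called, between 0.5 and 1 Mb 2 of 14 (14.3%), and between 2.5 and 5 Mb 9 of 41 (22.0%). The block on the centromere side held 8 of its 25 genes (32.0%), 7 of them lower, the block around Apoe 4 of 42 (9.52%), all lower, and the block on the telomere side 1 of 16 (6.25%), which was higher. Just outside the window, 2 of 19 tested genes (10.5%, both higher) were called in the next 5 Mb towards the centromere and 14 of 95 (14.7%) in the next 5 Mb towards the telomere, where 11 were lower. On the rest of chromosome 7 the share was 11.7%, with 40 genes higher and 48 lower. Among the 19 chromosomes counted (1 to 17, 19 and X, with chromosome 7 included), the share called ran from 10.5 to 16.1% and the share lower from 2.99 to 9.19%. Shares by position are descriptions, and none of these differences was tested.

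**Figure D2:**
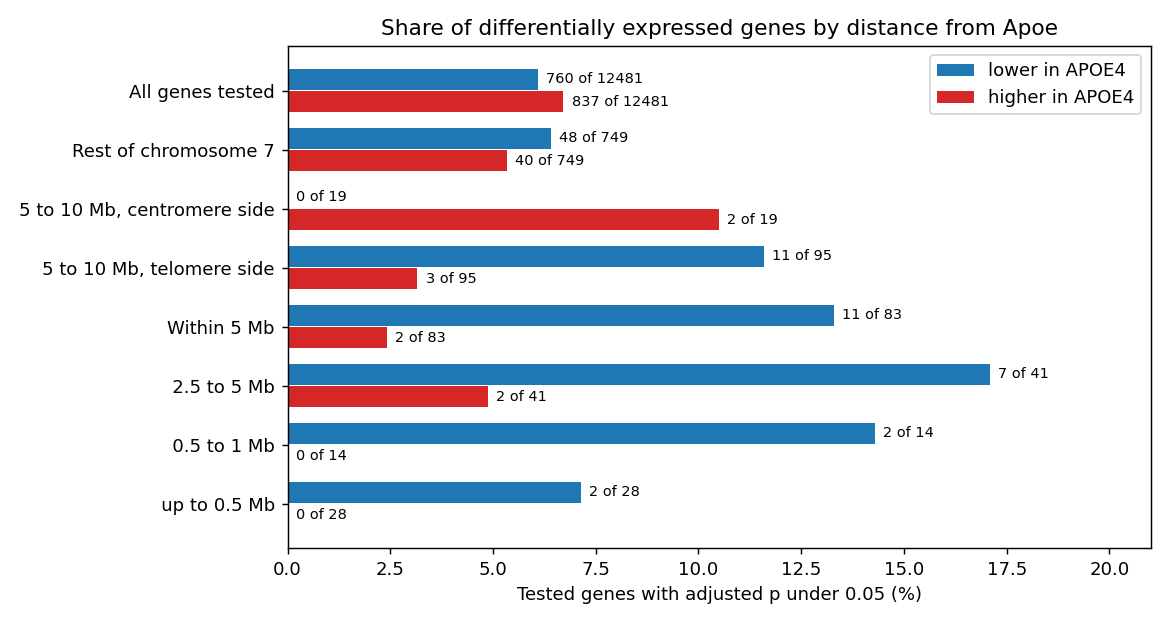
Bars give the percentage of tested genes with an adjusted p under 0.05 (horizontal axis) that were lower (blue) or higher (red) in APOE4, by distance from Apoe, for the flanking 5 Mb on each side, for the rest of chromosome 7 and for all genes tested. The numbers beside each bar count called genes of tested genes, and the bar for lower genes reached 17.1% at 2.5 to 5 Mb against 7.14% up to 0.5 Mb. The bars by distance pool both sides. At 2.5 to 5 Mb the lower genes were 7 of 25 on the centromere side and 0 of 16 on the telomere side.

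Dmpk (ENSMUSG00000030409.15, chromosome 7 from 19083849 to 19093821, plus strand), a serine/threonine kinase whose human counterpart carries the repeat expansion of myotonic dystrophy, had the largest fold change of the called genes. Its next neighbour Six5 (ENSMUSG00000040841.5, 19094594 to 19098549, plus strand), a homeobox transcription factor, was lower as well. The promoters of both are given because these adjacent genes fell together, beside that of Clasrp, the called gene closest to Apoe, and that of Calm3, the more abundant of the 2 higher genes. The sequences run 5′ to 3′ on the strand of the gene from 250 bases before to 50 bases after the start in RefSeq (GRCm38.p6). Capitals mark matches on either strand to 3 motifs, the GC box GGGCGG, the CCAAT box and the cell cycle homology region TTTGAA.
Dmpk, chr7:19083608-19083907, plus strand: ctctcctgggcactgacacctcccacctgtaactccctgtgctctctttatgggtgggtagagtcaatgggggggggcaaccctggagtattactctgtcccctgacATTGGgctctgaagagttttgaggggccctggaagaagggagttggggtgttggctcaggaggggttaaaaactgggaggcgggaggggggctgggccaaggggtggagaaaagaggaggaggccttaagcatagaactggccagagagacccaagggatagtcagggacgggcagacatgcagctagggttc
Six5, chr7:19094294-19094593, plus strand: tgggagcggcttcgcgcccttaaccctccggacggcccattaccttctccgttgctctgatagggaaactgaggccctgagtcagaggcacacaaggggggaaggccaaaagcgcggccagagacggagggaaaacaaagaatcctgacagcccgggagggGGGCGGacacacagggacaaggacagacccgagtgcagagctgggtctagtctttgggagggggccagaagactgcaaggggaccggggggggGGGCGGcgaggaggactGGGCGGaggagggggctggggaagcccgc
Clasrp, chr7:19604437-19604736, minus strand: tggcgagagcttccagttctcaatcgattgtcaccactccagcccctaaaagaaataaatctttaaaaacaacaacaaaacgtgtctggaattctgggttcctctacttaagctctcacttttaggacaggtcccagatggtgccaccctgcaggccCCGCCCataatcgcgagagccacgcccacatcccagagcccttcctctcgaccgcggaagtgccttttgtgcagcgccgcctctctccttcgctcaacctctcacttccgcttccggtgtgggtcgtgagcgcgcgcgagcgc
Calm3, chr7:16923983-16924282, minus strand: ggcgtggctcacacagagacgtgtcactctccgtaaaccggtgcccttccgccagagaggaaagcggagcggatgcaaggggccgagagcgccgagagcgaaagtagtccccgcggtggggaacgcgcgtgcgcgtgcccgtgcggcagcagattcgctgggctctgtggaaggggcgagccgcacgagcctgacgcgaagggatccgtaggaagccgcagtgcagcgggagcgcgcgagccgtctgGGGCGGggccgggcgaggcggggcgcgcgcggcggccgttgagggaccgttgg
In the Dmpk window 1 CCAAT match and 0 GC boxes were found, with 58.3% GC and 2 CpG dinucleotides. Six5 held 3 GC boxes, with 66.0% GC and 17 CpG, Clasrp 1 GC box, with 56.0% GC and 21 CpG, and Calm3 1 GC box, with 72.0% GC and 44 CpG. The Clasrp promoter shown is 1 of 2 that the table lists. Over the 32851 promoters of the same length, 35.7% held a GC box, 37.4% a CCAAT match and 17.9% a TTTGAA match. The shares among 80 promoters of 68 of the tested genes near Apoe were 65.0%, 33.8% and 11.2%, beside 63.5%, 37.6% and 11.9% among 12220 promoters of all genes tested. A match describes letters only and says nothing of binding. No promoter of Bicra or Nop53 is printed.

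Dmpk was at 25.0 CPM in the lowest, 27.1 in the median and 34.4 in the highest *APOE3* library, and at 19.5, 21.0 and 24.1 CPM in *APOE4* libraries. Every *APOE4* library lay below every *APOE3* library. The log2 fold change was -0.38 (SE 0.0635, edgeR adjusted p = 0.00447), with 265 to 539 counts per library. Six5 ranged over 25.5, 29.9 and 34.7 CPM in *APOE3* and 21.6, 24.8 and 28.0 CPM in *APOE4* libraries. The genotypes overlapped, with 5 of 8 *APOE4* libraries below the lowest *APOE3* library and all 8 below the *APOE3* median. Its log2 fold change was -0.24 (SE 0.0686, edgeR adjusted p = 0.0261).

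Bicra (ENSMUSG00000070808.4, 15970672 to 16047921, minus strand), a subunit of a BAF-type chromatin remodelling complex, was the other gene whose libraries did not overlap. It was at 103, 111 and 134 CPM (lowest, median, highest) in *APOE3* and at 86.7, 93.7 and 98.1 CPM in *APOE4* libraries. The log2 fold change was -0.31 (SE 0.0506, edgeR adjusted p = 0.00447), and 88 bases of its exons overlap those of Gm38948 on the opposite strand. Genes without overlap between genotypes were 2 of 83 near Apoe (2.41%) and 0.625% of all genes tested. In 12 of the 13 called genes all 8 *APOE4* libraries lay on the same side of the *APOE3* median, and for Strn4 7 of 8 did. The 13 genes were chosen by the test on these same libraries, so this describes them and gives no further support.

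Dhx34, Bbc3 and Napa of the centromere side were lower too. Dhx34 (ENSMUSG00000006019.15, 16197147 to 16222037, minus strand), an RNA helicase of nonsense-mediated decay, was at 22.9, 24.4 and 28.5 CPM in *APOE3* and 18.2, 20.3 and 23.2 CPM in *APOE4* libraries, with 6 of 8 *APOE4* libraries below the *APOE3* range. Its log2 fold change was -0.28 (SE 0.0615, edgeR adjusted p = 0.00958). Bbc3 (ENSMUSG00000002083.13, 16308393 to 16318205, plus strand) encodes PUMA, a p53-induced activator of apoptosis. It was at 21.6, 24.5 and 32.4 CPM in *APOE3* and 17.5, 20.7 and 23.7 CPM in *APOE4* libraries, again with 6 of 8 *APOE4* libraries below the *APOE3* range, and its log2 fold change was -0.29 (SE 0.0763, edgeR adjusted p = 0.0179). Napa (ENSMUSG00000006024.13, 16098458 to 16117975, plus strand), the adaptor alpha-SNAP that helps take SNARE complexes apart after membrane fusion, changed less. It was at 117, 128 and 134 CPM in *APOE3* and 109, 115 and 123 CPM in *APOE4* libraries, with a log2 fold change of -0.13 (SE 0.0338, edgeR adjusted p = 0.0197).

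A further 3 genes of this block fell by small amounts. They were Nop53, a nucleolar factor of ribosome assembly, Zc3h4, a zinc finger protein that restrains noncoding transcription, and Strn4, a scaffold of protein phosphatase 2A. Their log2 fold changes were -0.13, -0.10 and -0.12, with edgeR adjusted p of 0.0374, 0.0359 and 0.0366. Zc3h4 shares 155 exonic bases with Gm45510 on the opposite strand. With Ethe1, these were the least stable of the 13 calls, and held in 9, 5 and 6 of 16 fits made without 1 library at a time.

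Calm3 (ENSMUSG00000019370.10, 16915379 to 16924114, minus strand), one of the genes that encode the calcium sensor calmodulin, was the higher gene of the centromere side. It was at 353, 385 and 446 CPM in *APOE3* and 418, 447 and 543 CPM in *APOE4* libraries. The groups overlapped, with 4 of 8 *APOE4* libraries above the *APOE3* range and all 8 above the *APOE3* median, and the log2 fold change was 0.24 (SE 0.0559, edgeR adjusted p = 0.0122). Per kb of exon its mean level was 176 CPM, the third highest of the region after Ehd2 (243 CPM per kb), an ATPase of caveolae, and Selenow (205 CPM per kb), a small selenoprotein. How reads that match more than 1 calmodulin gene were counted is not given in the sources used here. At the telomere end, Ethe1 (ENSMUSG00000064254.6, 24587543 to 24608925, plus strand), a mitochondrial sulfur dioxygenase, was at 33.5, 39.9 and 46.8 CPM in *APOE3* and 40.5, 46.6 and 61.8 CPM in *APOE4* libraries. Its log2 fold change was 0.28 (SE 0.0837, edgeR adjusted p = 0.0330), 4 of 8 *APOE4* libraries lay above the *APOE3* range, and 99 exonic bases are shared with Zfp575 on the opposite strand.

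**Figure D3:**
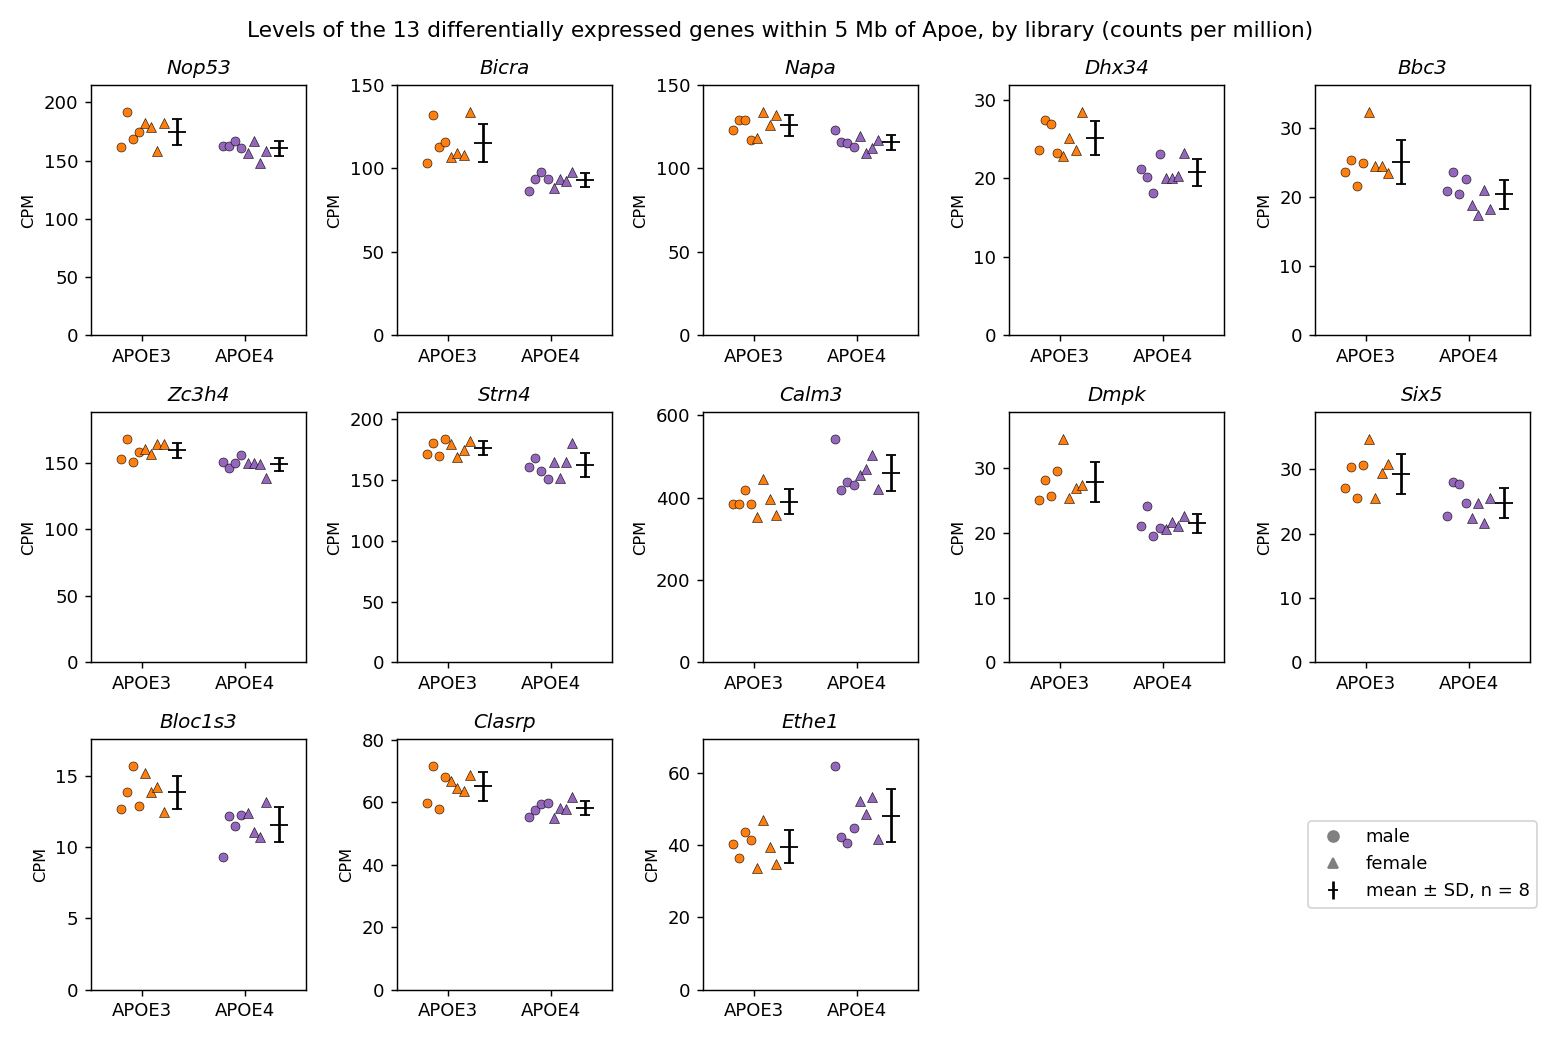
Each panel gives the level of 1 of the 13 differentially expressed genes in CPM (vertical axis, from 0) in the 8 APOE3 (orange) and 8 APOE4 (purple) libraries, circles for males and triangles for females, with the mean ± SD as a bar. The groups are apart in Bicra and Dmpk and overlap in the other 11 genes.

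The immediate neighbours of Apoe were examined next, since DNA closest to a targeted locus is the last to be replaced by backcrossing. Both lines were targeted at this locus, so both can keep that DNA. Whether it differs between them is not given in the sources used here. Within 250 kb lay 29 genes, of which 18 were tested and 2 were called (11.1%), near the 12.8% of all genes tested. Clasrp (ENSMUSG00000061028.7, 19581035 to 19604486, minus strand), a splicing regulator of the SR family, was at 57.7, 65.6 and 71.5 CPM in *APOE3* and 55.0, 58.0 and 61.5 CPM in *APOE4* libraries. All 8 *APOE4* libraries lay below the *APOE3* median and 3 below its range, and the log2 fold change was -0.16 (SE 0.0423, edgeR adjusted p = 0.0177). Bloc1s3 (ENSMUSG00000057667.7, 19504486 to 19508367, minus strand), a subunit of the BLOC-1 complex of lysosome-related organelles, was at 12.5, 13.9 and 15.7 CPM in *APOE3* and 9.29, 11.8 and 13.2 CPM in *APOE4* libraries. Here 7 of 8 *APOE4* libraries lay below the *APOE3* range, and the log2 fold change was -0.26 (SE 0.0729, edgeR adjusted p = 0.0258).

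The genes that border Apoe itself did not pass the test. Tomm40, whose start lies 5.2 kb from that of Apoe, was at 57.7, 63.1 and 68.5 CPM in *APOE3* and 54.3, 58.7 and 72.9 CPM in *APOE4* libraries, with a log2 fold change of -0.07 (SE 0.0530, edgeR adjusted p = 0.397). Nectin2 (log2 fold change -0.06, SE 0.0450) and Bcam, a laminin receptor (-0.06, SE 0.0484), were abundant, with medians of 286 and 559 CPM in *APOE3* and 279 and 549 CPM in *APOE4* libraries. On the other side of Apoe, Clptm1 had a log2 fold change of 0.01 (SE 0.0285) and Relb of -0.04 (SE 0.0426). Ranges of the 2 genotypes overlapped in each of these genes. Apoc1 and Apoc2 were at 0 in every library and Apoc4 held 2 counts in all. Bcl3, 112.4 kb from Apoe, was at 16.6, 19.4 and 26.4 CPM in *APOE3* and 19.4, 23.5 and 27.0 CPM in *APOE4* libraries (log2 fold change 0.22, SE 0.0926, edgeR adjusted p = 0.123).

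The widest estimates belonged to genes near the detection limit. Exoc3l2 had 4 to 25 counts per library and a log2 fold change of 0.66 (SE 0.290, edgeR adjusted p = 0.135), the noncoding RNA Gm44659 had 1 to 19 counts and 0.76 (SE 0.369, adjusted p = 0.179), and Gm26890 had 9 to 33 counts and -0.50 (SE 0.226, adjusted p = 0.146). Rtn2 had 9 to 37 counts and a log2 fold change of 0.55, between 0.44 and 0.68 with each library left out, and did not pass. Nkpd1 (0.05, SE 0.265) and Igsf23 (-0.18, SE 0.312) were equally imprecise. Trappc6a, Ppp1r37, Gemin7, Ceacam16 and Pvr had log2 fold changes of -0.07, -0.10, 0.07, -0.10 and 0.05. Of the 6 tested genes that reached the count level in only 8 to 15 libraries, 0 were called.

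By function, 9 of the 13 called genes belonged to the gene groups below, and Bicra, Dhx34, Zc3h4 and Bloc1s3 to none of them. Over all genes tested 12.8% were called, which is the share to read beside each count. In the apolipoprotein cluster with its next genes 7 of 11 genes were tested and 1, Clasrp, fell. Of 5 tested genes of nuclear factor kappa B signaling and inflammation (Pglyrp1, Relb, Bcl3, Plaur and Irgq) 0 passed, with edgeR log2 fold changes of -0.22 to 0.22 and a lowest adjusted p of 0.123. Plaur, the urokinase receptor, was at a median of 115 CPM in *APOE3* and 112 CPM in *APOE4* libraries. Of 6 tested genes listed under DNA repair and cell death (Bbc3, Ercc1, Cd3eap, Ppp1r13l, Ercc2 and Xrcc1) 1, Bbc3, fell. The repair genes Ercc1, Ercc2 and Xrcc1 had log2 fold changes of 0.04 (SE 0.0590), -0.08 (SE 0.0434) and -0.04 (SE 0.0424). The role of Cd3eap in repair or cell death was not examined.

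The RNA processing list had 3 of its 7 tested genes lower, and the median of its log2 fold changes was -0.12 against -0.00022 over all genes tested, of which 6.09% were lower. Of these 3, Clasrp acts in splicing and Nop53 in ribosome assembly, and Strn4 is a phosphatase scaffold with no established role in RNA processing. The other 4, Nova2, Snrpd2, Gemin7 and Smg9, did not pass, and Nova2, a splicing factor of neurons and vessels, had a log2 fold change of -0.16 (SE 0.0542, edgeR adjusted p = 0.0520). Among 14 tested genes of adhesion, receptors and cytoskeleton, Calm3 rose, Napa and Dmpk fell, and 11 did not pass. The abundant cytoskeletal gene Vasp was at 225 and 219 CPM (medians of *APOE3* and *APOE4*), Ehd2 at 1253 and 1256 CPM, and Gpr4, a proton-sensing receptor, at 164 and 162 CPM. Of 7 tested metabolic and mitochondrial genes Ethe1 rose, and Selenow, Slc1a5, Hif3a, Qpctl, Opa3 and Tomm40 did not pass.

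The transcription factor list held 6 tested genes (Hif3a, Mypop, Irf2bp1, Six5, Fosb and Relb). All 6 had a log2 fold change below 0 (median -0.17), beside 67.5% of the tested genes of the region and 50.1% of all genes tested. Of the 6, 1, Six5, passed the test. The list does not cover every such gene of the region, since Bcl3 (0.22) and the zinc finger genes below are counted in other lists. With the cell cycle score in the fit, Hif3a (0.01), Fosb (0.07) and Relb (0.02) were above 0 and Six5 was at -0.02. Hif3a, a hypoxia-inducible factor, was at 119, 135 and 177 CPM in *APOE3* and 102, 115 and 153 CPM in *APOE4* libraries (log2 fold change -0.27, SE 0.0894, edgeR adjusted p = 0.0548). Fosb, an immediate early gene, was at 8.05, 9.77 and 13.3 CPM in *APOE3* and 6.54, 7.62 and 10.5 CPM in *APOE4* libraries (-0.29, SE 0.115, adjusted p = 0.0961). The zinc finger cluster near the telomere end of the region held most of the 10 tested of 14 Zfp genes, and 0 of these 10 were called, with 8 below 0 and a range from -0.33 (Zfp94, adjusted p = 0.0926) to 0.17 (Zfp111, adjusted p = 0.103). All 63 Vmn1r genes were at 0 in every library, 8 of 13 Psg genes (without Psg-ps1) were at 0, and of 11 Ceacam genes 7 were at 0 and 1, Ceacam16, was tested. A list here serves to describe its members, and the lists overlap.

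Males and females were compared in 1 fit of 4 groups with 4 libraries each. The difference of the genotype effect between sexes did not pass the test for any gene of the region (0 of 83, and 0.0% of all genes tested, edgeR), and 2 genes had an unadjusted p under 0.05, where 2.76% of all genes tested did. Bbc3 had a log2 fold change of -0.13 (SE 0.0976) in males and -0.47 (SE 0.0977) in females, a difference of -0.34 (SE 0.138, edgeR unadjusted p = 0.0238, adjusted p = 1). Ercc1 had -0.09 in males and 0.17 in females, a difference of 0.26 (SE 0.108, edgeR unadjusted p = 0.0292, adjusted p = 1). The highest Bbc3 level, 32.4 CPM, came from *APOE3* replicate 30, a female library. Without that library 0 of 84 genes had an unadjusted p under 0.05 for the difference between sexes (edgeR). With each library left out in turn this number was 0 to 4. All 13 called genes had the same sign in both sexes, which is no separate support, since a test on the same libraries chose them. Within each sex 0.0% of all genes tested were called. Within males 0 genes of the region were called and 11 had an unadjusted p under 0.05 (14.2% of all genes tested), and within females 0 were called and 18 had one (19.5% of all genes tested).

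The cell cycle score moved with genotype, and 28 of its 31 genes were higher in *APOE4* libraries with a median log2 fold change of 0.65. When the score entered the fit as a covariate, 0 genes of the region and 0.0% of all genes tested were called, and 12 of the 83 (14.5%) had an unadjusted p under 0.05, against 7.27% of all genes tested. Of the 13 called genes 12 kept their sign, with log2 fold changes between -0.26 and 0.02 and a lowest edgeR adjusted p of 0.496. Dhx34 had -0.26 and Napa -0.17, while Six5 had -0.02, Calm3 0.02 and Ethe1 -0.04. The SE of these estimates was 0.699 to 1.42 times that without the covariate. Since the score differs between genotypes, cell cycle activity and genotype cannot be told apart in this design. Correcting each library for GC content and gene length left 11 of the 13 called, and Zc3h4 (log2 fold change -0.06, adjusted p = 0.211) and Strn4 (-0.11, adjusted p = 0.0532) were no longer called.

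**Figure D4:**
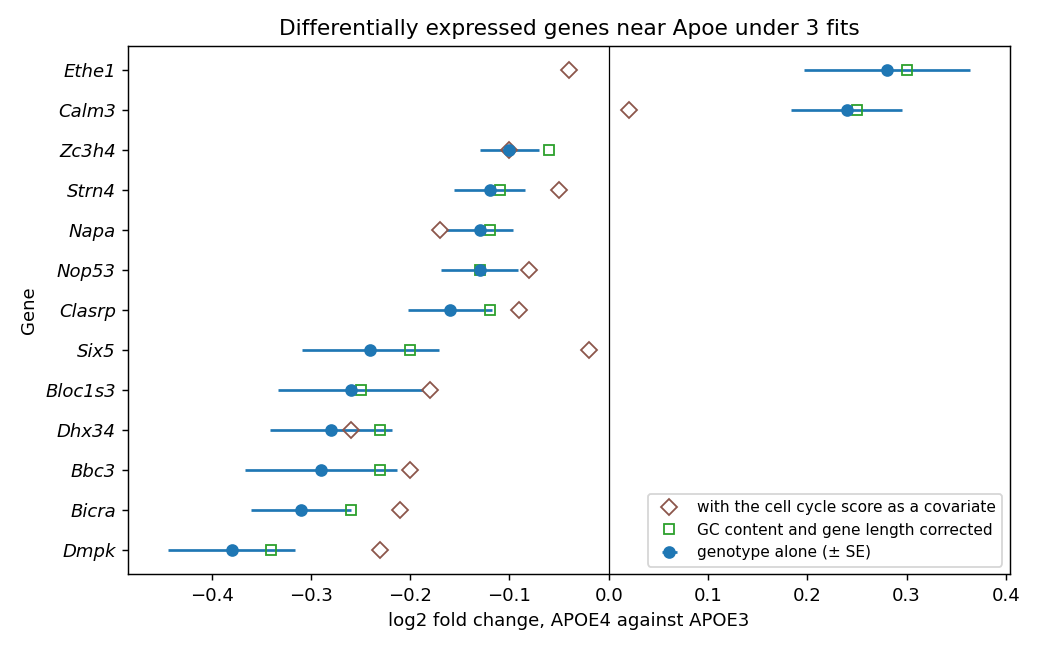
For each of the 13 genes (vertical axis) the log2 fold change of APOE4 against APOE3 (horizontal axis) is given from the fit of genotype alone (filled circles, ± SE), after correction for GC content and gene length (squares) and from the fit that also holds the cell cycle score (diamonds). With the covariate Calm3, Six5 and Ethe1 move to 0.02, -0.02 and -0.04 and Dmpk moves from -0.38 to -0.23, and the 13 diamonds lie between -0.26 and 0.02.

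Leaving out 1 library at a time, 7 of the 13 genes were called in all 16 fits (Bicra, Napa, Dhx34, Bbc3, Calm3, Dmpk and Clasrp), while Bloc1s3 was called in 14, Six5 in 13 and Ethe1 in 9. The number called was lowest, at 7 genes (8.33%), without *APOE3* replicate 30 or without *APOE4* replicate 41. Of all genes then tested, 853 (6.81%) and 846 (6.74%) were called. It was 8 (9.52%) without *APOE3* replicate 33, when 952 of all genes (7.57%) were called. Of the 13 genes, 9 lay more than 2.5 Mb from Apoe, and windows of 1 Mb or 2.5 Mb on each side both held the same 4 called of 42 tested genes (9.52%). Without a filter on low counts 10 of 150 genes of the region were called (6.67%), beside 5.74% of all genes then tested.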

How the data were processed

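The deposited file is a table of counts, reads per gene without normalization, which the authors made with STAR and featureCounts on mm10 and hg38 per the labels; versions, annotation release, strand setting and treatment of reads with several matches are not given in the sources used here. Libraries were poly-A selected with a strand-selecting kit. Reads carry no molecular identifiers, so depth covers counting error only. Each of the 16 columns was matched to its culture by its label.

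Of 39056 mouse identifiers, 38872 were found in GENCODE vM21 with the version ignored and 184 were not. The vM21 annotation has 499 genes in the window, of which 447 are in the table. The test was that of edgeR 4.0.16 in R 4.3.3 (filterByExpr by genotype, TMM, quasi-likelihood F test with genotype as the single term, Benjamini-Hochberg over 12481 genes, threshold 0.05). SE is the size of the log2 fold change divided by the square root of F. Mean levels between genes were compared as CPM per kb of exon. Figures used Python 3.11.15 and matplotlib 3.10.9. Fits were tested on simulated data.

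The members, gene lists and alternatives were chosen with earlier results of these data known, although the rule for members uses position and no measured value. The genes named are the called members (full statistics for the 10 of smallest p), tested members within 250 kb of Apoe, members without overlap, and up to 5 untested members with the most counts. Of the tested members of the lists a part is named, and the rest enter only the counts, medians and ranges. Untested members of the lists (the Apoc genes) and other genes given as highest were named after their values were seen. Alternatives were DESeq2 1.42.0 (size factors or Wald test), limma 3.58.1 voom with quality weights, other count filters, sex or the cell cycle score as a covariate, GC content and length corrected by splines with 5 degrees of freedom, other windows, and each library left out in turn. Raw reads were not used here.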

Additional observations from a re-analysis of the deposited data

Results flagged for a closer look

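For 51 genes, 50 genes near Apoe named above and human *APOE*, each genotype's 8 libraries were searched for a highest or lowest library whose gap to the nearest other exceeded 0.526 of the whole range (Dixon's 95% critical value for 8). This held in 10 of 102 groups, and chance gives about 1 in 20. *APOE3* replicate 30 was apart in Bbc3, at 32.4 CPM where the other 7 lay at 21.6 to 25.4, and in Dmpk, at 34.4 CPM where the others lay at 25.0 to 29.4. Both genes were still called without it. The same library was apart in Smg9, at 32.6 CPM against 25.7 to 28.5. *APOE4* replicate 36 was apart in Ppp1r37, at 182 CPM against 159 to 169, and in Nkpd1, at 1.58 CPM against 0.557 to 0.953. *APOE4* replicate 38 was apart in Hif3a, at 153 CPM against 102 to 124. *APOE3* replicate 28 was apart in Vasp, at 265 CPM against 216 to 236. *APOE3* replicate 31 was lowest in Irgq, at 40.8 CPM against 45.7 to 49.7, and highest in Selenow, at 167 CPM against 139 to 151. *APOE4* replicate 35 was apart in Snrpd2, at 39.5 CPM against 29.5 to 33.9. No cause of these single values was tested.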

How the results depend on the processing

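The number of called genes near Apoe was 13 with DESeq2's size factors, with sex as a covariate, with voom (12 of them shared, Nop53 lost) and with positions taken at the 5′ end. That was 15.7% of the tested genes near Apoe each time, beside 12.2 to 13.1% of all genes tested. The number was 10 without a filter on low counts (6.67%, beside 5.74% of all genes) and 14 with at least 10 counts in every library (18.2% beside 14.4%). It was 15 with DESeq2's Wald test (18.1% beside 15.7%) and 12 after correction for GC content and length (3 higher, 9 lower, 14.5% beside 12.0%). Among genes whose exons overlap no other gene it was 10 of 64 (15.6% beside 12.8%). It was 0 when the cell cycle score was a covariate (0.0% beside 0.0%). Windows of 1 Mb and 2.5 Mb on each side each held 4 of 42 tested genes (9.52%), beside 12.8% of all genes. A window of 10 Mb on each side held 29 of 197 (14.7%), beside the same 12.8%. With each library left out the number ran from 7 (8.33%, beside 6.74% or 6.81% of all genes) to 17 (20.2% beside 12.1%). The median over the region was -0.03 on the log2 scale under that covariate and -0.07 to -0.05 with each library left out, and human *APOE* then had -0.23 (edgeR adjusted p = 0.608) with the score and -0.62 to -0.51 with each library left out. With the score, signs turned for Bcam (0.09), Clptm1 (-0.0061), Ercc1 (-0.06), Ethe1 (-0.04), Fosb (0.07), Gemin7 (-0.03), Gpr4 (0.05), Hif3a (0.01), Nova2 (0.04), Opa3 (-0.04), Pglyrp1 (0.05), Qpctl (-0.14), Relb (0.02), Selenow (-0.08), Smg9 (0.04) and Snrpd2 (-0.11). Leaving out libraries gave -0.13 to 0.23 for Nkpd1, -0.18 to 0.02 for Ceacam16, -0.02 to 0.02 for Irgq, -0.0019 to 0.06 for Snrpd2 and -4.3e-05 to 0.02 for Clptm1. Hif3a (adjusted p = 0.0311) and Nova2 (0.0342) passed DESeq2's Wald test. The cause was not tested. Without a filter, 0 of the 67 further genes were called by edgeR, 7 had an unadjusted p under 0.05 and the lowest adjusted p was 0.169. No paired analysis was possible because no culture number occurs in both genotypes.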
